A study of Homo sapiens with 18 samples.

Results

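The collagen genes were followed in Ccd18-Co, an established line of human colon fibroblasts, whose open chromatin was profiled by bulk ATAC-seq (Omni-ATAC), where a transposase cuts accessible DNA and adds sequencing adaptors to it. The members were the autosomal protein-coding genes whose symbol is COL, a number, A and a number, and every peak that overlaps the body or the 3 kb (3000 bp) upstream of such a gene. This rule found 42 genes and 1120 peaks, 0.334% of the 334857 peaks of the hg38 count table. There were 11 fibrillar collagen genes with 253 peaks, 4 basement membrane (type IV) genes with 148 peaks and 27 genes of the other types with 719 peaks.

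The 18 libraries formed 3 groups of 6, all of the same line, grown in full medium. Unstimulated cells received no cytokine pulses by their title, and the labels name no solvent for them. DMSO cells were pulsed 3 times with the cytokines TNF, OSM and IL-17A, each at 10 ng/ml, and IL-1β at 0.1 ng/ml. A pulse lasted 72 h, followed by 96 h of recovery, and after 1 week of rest the solvent DMSO was given for 5 days. Belinostat cells had the same pulses and rest, and then 250 nM belinostat, a histone deacetylase inhibitor, for 5 days. Cells were collected 2 weeks after the compound, so the libraries describe what remained. The study's text gives a higher belinostat concentration than the labels and, in places, a lower one for IL-1β. The cytokine contrast is DMSO minus unstimulated, the belinostat contrast is belinostat minus DMSO, and the residual contrast is belinostat minus unstimulated. The contrasts share libraries, so their values for the same peak are set side by side and are not independent of each other.

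Collagens are the main structural proteins of connective tissue, and fibroblasts make most of them. Fibrillar collagens such as types I, III and V assemble into banded fibrils that carry tensile load. Type IV collagen forms the sheet-like network of basement membranes under epithelia and around vessels. The remaining types decorate fibrils (the fibril-associated or FACIT collagens), build beaded microfibrils (type VI), anchor the epithelium to the stroma (type VII), form short-chain networks, carry an endostatin-type domain at their end (the multiplexins, types XV and XVIII) or span the cell membrane. Opening of chromatin at gene starts and at enhancers, which often lie in introns, is a common part of their regulation. It is not a measure of transcription.

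The sequences of 6 intronic or exonic windows are from named peaks, chosen for the reasons given beside them. Each is the 300 bp around the centre of a peak, from the plus strand of the RefSeq assembly of hg38, and capitals mark every match on either strand to 7 words: AP-1 (TGANTCA), NF-kB (GGG, any 2 bases, TTTCC), TEAD (GGAATG), RUNX (TGTGGT), the CCAAT box (CCAAT), the GC box (GGGCGG) and the TATA box (TATAAA). The COL24A1 windows, from neighbouring peaks in chr1:86138623-86139383 and chr1:86137401-86137829, had the largest cytokine rises. The COL25A1 window, in chr4:109024920-109026039, had the smallest adjusted p among the largest cytokine falls.
COL24A1 chr1:86138853-86139152: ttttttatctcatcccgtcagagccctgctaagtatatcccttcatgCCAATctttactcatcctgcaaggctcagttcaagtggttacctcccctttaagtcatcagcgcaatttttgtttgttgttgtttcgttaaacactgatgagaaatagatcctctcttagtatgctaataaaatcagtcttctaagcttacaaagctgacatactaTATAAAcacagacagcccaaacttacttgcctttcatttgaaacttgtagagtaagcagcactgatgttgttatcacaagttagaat
COL24A1 chr1:86137465-86137764: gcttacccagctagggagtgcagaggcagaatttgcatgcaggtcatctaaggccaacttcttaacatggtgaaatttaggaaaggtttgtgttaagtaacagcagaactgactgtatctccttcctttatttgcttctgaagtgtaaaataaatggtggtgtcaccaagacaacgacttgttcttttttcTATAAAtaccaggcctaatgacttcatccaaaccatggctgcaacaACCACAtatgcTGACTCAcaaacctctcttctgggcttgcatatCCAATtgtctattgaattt
COL25A1 chr4:109025329-109025628: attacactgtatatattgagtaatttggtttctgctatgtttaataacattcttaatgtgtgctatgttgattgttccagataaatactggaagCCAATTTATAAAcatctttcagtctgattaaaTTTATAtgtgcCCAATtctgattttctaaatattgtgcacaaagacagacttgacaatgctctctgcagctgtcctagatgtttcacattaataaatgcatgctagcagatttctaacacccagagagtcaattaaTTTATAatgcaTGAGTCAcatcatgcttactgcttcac
The COL6A3 and COL5A2 windows, in chr2:237383837-237384551 and chr2:189082324-189083284, are those of the named falls with belinostat that had the smallest adjusted p. The COL12A1 window, in chr6:75130577-75131469, is from a peak over a coding exon that was closed after cytokines and opened after belinostat.
COL6A3 chr2:237384044-237384343: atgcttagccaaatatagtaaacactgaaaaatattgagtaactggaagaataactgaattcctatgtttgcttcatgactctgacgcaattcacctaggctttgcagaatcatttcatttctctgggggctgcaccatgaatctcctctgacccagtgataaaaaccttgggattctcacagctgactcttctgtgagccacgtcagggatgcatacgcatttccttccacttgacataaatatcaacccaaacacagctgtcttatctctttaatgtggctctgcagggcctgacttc
COL5A2 chr2:189082654-189082953: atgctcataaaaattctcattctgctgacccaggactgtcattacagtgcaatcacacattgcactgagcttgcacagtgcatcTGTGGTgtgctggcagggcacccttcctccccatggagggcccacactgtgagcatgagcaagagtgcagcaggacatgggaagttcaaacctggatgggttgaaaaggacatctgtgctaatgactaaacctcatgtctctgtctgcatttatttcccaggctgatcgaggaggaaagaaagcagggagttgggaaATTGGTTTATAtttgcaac
COL12A1 chr6:75130873-75131172: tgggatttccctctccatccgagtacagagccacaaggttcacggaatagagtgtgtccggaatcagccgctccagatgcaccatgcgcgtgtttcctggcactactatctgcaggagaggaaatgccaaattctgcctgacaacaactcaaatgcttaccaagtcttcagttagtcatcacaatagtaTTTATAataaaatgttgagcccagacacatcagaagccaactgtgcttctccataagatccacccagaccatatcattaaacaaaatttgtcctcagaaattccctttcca
An AP-1 word lay in the second COL24A1 window (TGACTCA) and in the COL25A1 window (TGAGTCA), and in neither window of the belinostat falls. In the COL25A1 window a CCAAT box and TATA words on both strands overlap in 1 run of capitals. The COL6A3 window held 0 of the 7 words. A match describes the letters and is not evidence of binding.

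Over all 1120 collagen peaks, words were about as common as over all 334857 peaks. AP-1 was in 18.6% of collagen windows and 17.8% of all windows, RUNX in 269 of the 1120 and 22.6% of all, TEAD in 22.1% and 21.3%, and NF-kB in 1.34% and 1.44%. The CCAAT box was in 31.9% and 31.4%, the TATA box in 12.2% and 13.6%, and the GC box in 11.6% and 11.4%. At collagen gene starts the GC box was in 21 of 34 windows (61.8%, against 66.9% of all start peaks) and AP-1 in 1 (2.94%, against 4.05%).

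The genes held 5 peaks (COL10A1) to 109 peaks (COL23A1), with a median of 20, against 6 over all 18893 protein-coding genes with a peak. Introns held 899 of the collagen peaks, exons 166, the upstream stretch 21, and 34 were start peaks, which overlap the start of the canonical transcript or lie within 500 bp of it. The 34 start peaks served 36 genes, since COL4A1 and COL4A2, and COL4A3 and COL4A4, are arranged head to head and share theirs. COL9A1, COL10A1, COL17A1, COL20A1, COL22A1 and COL28A1 had no start peak. In all, 9 peaks belonged to 2 collagen genes and 58 also overlapped another gene, and a shared peak was counted in each collagen gene it overlaps, whichever gene its accessibility belongs to. The median of the average log2 CPM (the log2 of counts scaled to library size, with a prior count of 2) was 3.00 at starts, 2.14 upstream, 0.51 in exons and 0.35 in introns. It was 0.92 in fibrillar, 0.67 in basement membrane and 0.26 in other collagen peaks, against 0.20 over all peaks. Collagen peaks had a median width of 280 bp and a GC content of 51.7%, against 275 bp and 49.7% over all peaks.

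Counts in peaks ran from 7077320 to 11352000 per unstimulated library, 6488980 to 8066640 per DMSO library and 4661680 to 6370840 per belinostat library. The collagen peaks received 24180 to 38516, 22692 to 27946 and 16275 to 21463 of them, a share of 0.342% ± 0.00328 (SD, n = 6), 0.346% ± 0.00376 (SD, n = 6) and 0.342% ± 0.00413 (SD, n = 6). The share of all counts that fell in the 10000 strongest peaks was 37.0% ± 1.27 (SD, n = 6), 33.3% ± 1.23 (SD, n = 6) and 31.2% ± 2.24 (SD, n = 6) in the same order. Unstimulated 6 stood apart, with 91 collagen peaks at a count of 0, against 1 to 36 in the other 17 libraries. Of markers read at gene starts, all 10 of the fibroblast list had a start peak, with a median of 4.39 log2 CPM in unstimulated cells, and all 5 of the smooth muscle list (2.75). The immune list had 2 of 5 (1.53), the endothelial list 4 of 5 (0.62) and the epithelial list 4 of 6 (0.29). The immune median lies between only 2 values, -0.70 at CD3E and 3.76 at CD14. Single genes of different lists overlapped in unstimulated cells. Fibroblast starts ran from 1.59 to 5.27 log2 CPM and smooth muscle starts from 0.46 to 4.75. Endothelial starts ran from -0.61 to 2.42, and epithelial ones reached 2.24. The medians therefore do not separate the lists gene by gene. In DMSO and belinostat libraries the fibroblast median was 4.21 and 3.91, the smooth muscle median 2.46 and 2.36, the immune median 1.53 and 1.88, the endothelial median 0.92 and 0.97 and the epithelial median 0.65 and 0.91, and the part of this in the results was not tested. In bulk libraries, fewer cells with an open locus cannot be told apart from less opening in each cell. The sources used here do not say whether the 6 libraries of a group came from separate cultures, so p-values measure only the spread between these libraries, which may be technical.

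Accessibility per kb of peak ordered the genes in unstimulated cells. It was highest at COL1A1, which encodes the main chain of type I collagen, with 35.7 ± 2.47 CPM per kb of peak (SD, n = 6), and at COL7A1, the anchoring fibril collagen, with 32.4 ± 3.06 (SD, n = 6). The COL7A1 value includes a strong upstream peak that also overlaps UQCRC1, and without it COL7A1 lay at 12.6 ± 0.85 CPM per kb (SD, n = 6), below the genes that follow here down to COL4A2. COL12A1, a FACIT collagen, followed with 18.9 ± 1.56 CPM per kb (SD, n = 6), then COL5A1, a regulator of fibril diameter, with 18.4 ± 1.23 (SD, n = 6), which did not differ from COL12A1 beyond that spread. Next came COL1A2, the partner chain of COL1A1, with 14.8 ± 0.67 CPM per kb (SD, n = 6), and COL4A2, the type IV gene with the highest value, with 14.4 ± 0.96 (SD, n = 6). The lowest was COL22A1, a collagen of tissue junctions, with 1.70 ± 0.44 CPM per kb (SD, n = 6) over 71 peaks. COL19A1 (2.64), COL9A1 (2.71) and the basement membrane gene COL4A4 (2.86) were also low. These are levels of accessibility and not of expression.

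**Figure D1:**
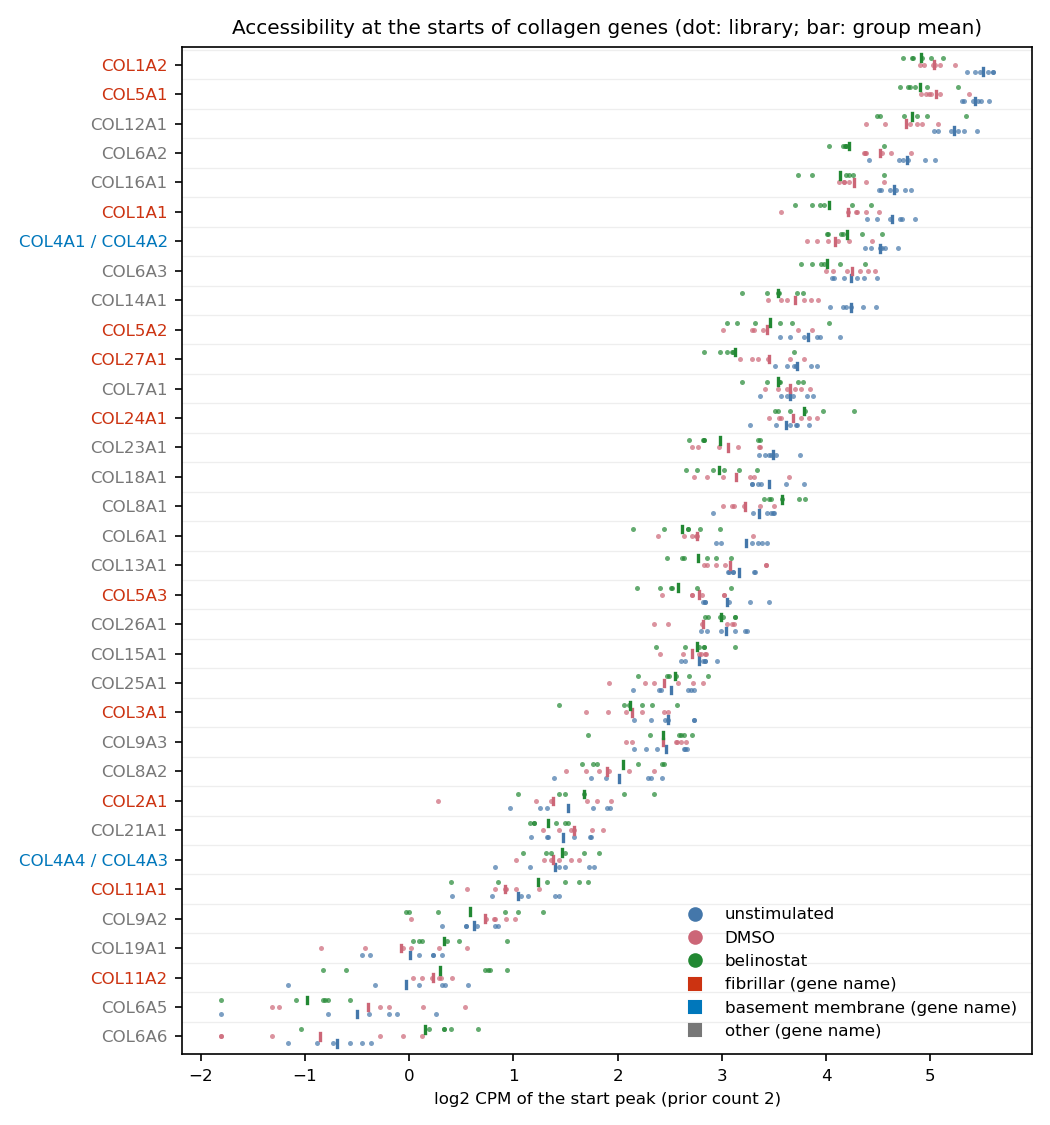
Log2 CPM (prior count 2) of the 34 collagen start peaks, with 1 dot per library and a bar at the mean of each group of 6, and gene names coloured by class. COL1A2 is at the top, where every unstimulated library lies above every DMSO library, and the weakest start peaks are those of COL6A5 and COL6A6; with offsets fitted to peak strength none of the 10 falls after cytokines at these starts passed.

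Start peaks differed in strength among the genes that make the bulk of fibroblast matrix. That of COL1A2 was the strongest of the 34 in unstimulated cells, and that of COL3A1, given below, was much weaker. The COL1A2 start peak (chr7:94394143-94395181, over the first exon, where ENSG00000285090 also lies) lay at 5.35, 5.51 and 5.61 log2 CPM (lowest, median and highest of 6) in unstimulated, 4.91, 5.03 and 5.24 in DMSO and 4.74, 4.88 and 5.12 in belinostat libraries. DMSO libraries were low and did not overlap with unstimulated ones, while belinostat and DMSO libraries overlapped. The log2 fold change of the cytokine contrast was -0.47 ± 0.10 (adjusted p 0.000854), from edgeR's quasi-likelihood test with TMM factors (trimmed mean of M values) and Benjamini-Hochberg adjustment over all peaks. With loess offsets, which take out each library's trend with peak strength, the estimate shrank to -0.06 (adjusted p 0.555). After a log2 fold change, the value following ± is its standard error.

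Of the 34 collagen start peaks, 10 (29.4%) were closed and 0 opened in the cytokine contrast at an adjusted p under 0.05, against 56.9% closed and 2.15% opened among the 14752 start peaks of all protein-coding genes. Without adjustment, 14 had a p under 0.05, all lower. The 10 were those of COL1A1 (-0.41, adjusted p 0.0092), COL1A2, COL5A1 (-0.37, adjusted p 0.00866), COL5A2 (-0.40, adjusted p 0.0221), COL4A1 and COL4A2 (1 shared peak, -0.42, adjusted p 0.00584), COL6A1 (-0.47, adjusted p 0.0152), COL12A1 (-0.45, adjusted p 0.00277), COL14A1 (-0.56, adjusted p 0.0005), COL16A1 (-0.38, adjusted p 0.0116) and COL23A1 (-0.43, adjusted p 0.0176), as log2 fold changes. With loess offsets 0 of the 10 passed and COL5A1 turned to 0.03. Instead 3 other start peaks were opened, against 1.88% opened and 0.508% closed of all start peaks, those of COL24A1 (0.39, adjusted p 0.00605), COL6A3 (0.37, adjusted p 0.00127) and COL7A1 (0.33, adjusted p 0.0378). The COL1A1 start peak lost its call without DMSO 1, its lowest library (-0.30, adjusted p 0.0683). So did COL5A2 without unstimulated 1, 4 or 6 or DMSO 1 or 4 (adjusted p up to 0.0898), COL6A1 without unstimulated 1 or DMSO 5 (up to 0.0535) and COL23A1 without unstimulated 1, DMSO 5 or DMSO 6 (up to 0.0824). COL3A1, the third major fibrillar gene, had a start peak at 2.16, 2.47 and 2.74 log2 CPM in unstimulated and 1.70, 2.16 and 2.48 in DMSO libraries, groups that overlapped, with a log2 fold change of -0.35 ± 0.17 (adjusted p 0.117).

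Belinostat left the start peaks below the threshold. In the belinostat contrast 0 of 34 were opened and 0 closed, against 0.122% opened and 0.671% closed among all start peaks, and without adjustment 2 higher and 4 lower ones had a p under 0.05. With loess offsets 3 were opened, against 1.53% opened and 0.414% closed of all start peaks, those of COL8A1, a short-chain collagen of vessel walls and the eye (0.49, adjusted p 0.00207), COL12A1 (0.24, adjusted p 0.0319) and COL4A1 with COL4A2 (0.28, adjusted p 0.0495). In the residual contrast 1 was opened and 15 were closed, against 3.81% and 66.5% of all start peaks, and with loess offsets 5 were opened and 1 closed, against 7.00% and 1.23%.

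**Figure D2:**
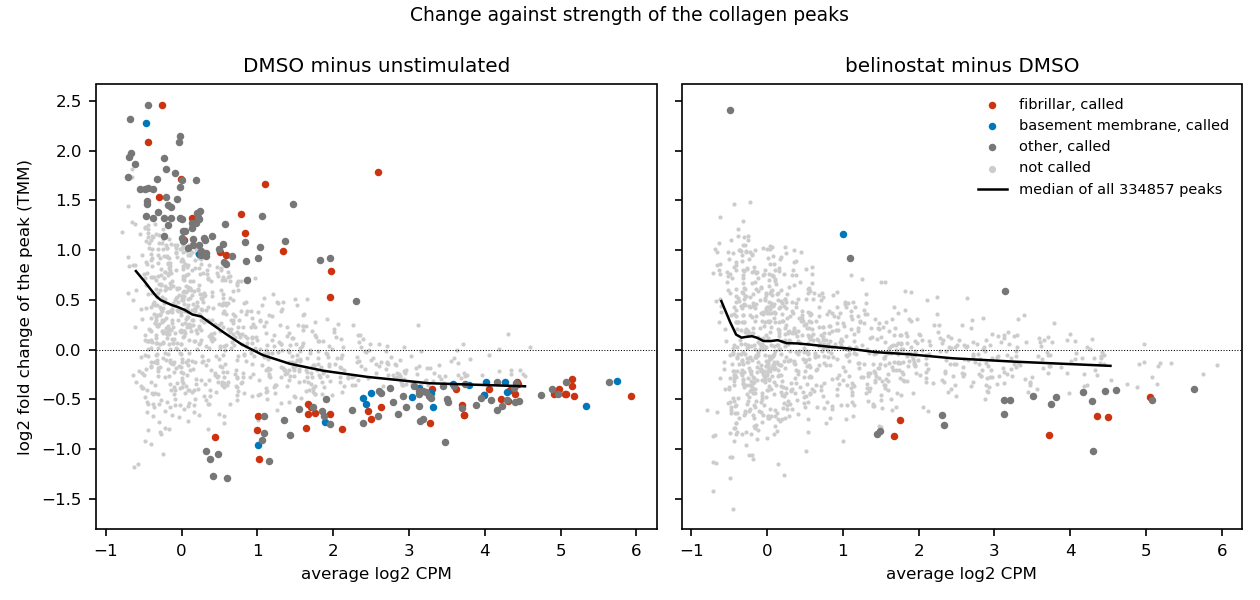
Log2 fold change (TMM) of the 1120 collagen peaks against their average log2 CPM, for DMSO minus unstimulated on the left and belinostat minus DMSO on the right, with called peaks coloured by class and the running median of all 334857 peaks as a line. After cytokines the line falls from above 0 in weak peaks to below 0 in strong ones, and the opened and closed collagen peaks lie on both sides of it; library totals shift the points up and TMM over the weaker 50% of peaks shifts them down.

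Over all collagen peaks the cytokine contrast had 90 opened and 113 closed peaks, 8.04% and 10.1% of the family, against 9.51% opened and 9.73% closed of all peaks. Fibrillar genes had 15 opened and 36 closed (5.93% and 14.2%), basement membrane genes 2 and 17 (1.35% and 11.5%) and other genes 73 and 60 (10.2% and 8.34%). This split moved with the scaling, to 173 opened and 49 closed collagen peaks with library totals, 26 and 351 with TMM over the weaker 50% of peaks, and 32 and 25 with loess offsets, against 1.99% and 1.92% of all peaks with loess offsets. With loess offsets the counts were 10 opened and 8 closed in fibrillar genes, 1 and 2 in basement membrane genes and 21 and 15 in the others. The median log2 fold change with TMM was -0.09 in fibrillar, -0.06 in basement membrane and 0.16 in other collagen peaks, against 0.13 over all peaks. Without unstimulated 6 there were 60 opened and 75 closed.

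The calls followed peak strength, in collagen genes as in all peaks. All peaks were divided into 4 bins of equal size by average log2 CPM, with edges at -0.24, 0.20 and 1.24. Of the 194 collagen peaks in the weakest bin, 22 were opened (11.3%) and 0 closed, against 12.0% and 0.207% of all peaks there. Of the 352 in the strongest, 9 were opened (2.56%) and 99 closed (28.1%), against 2.01% and 35.8% of all peaks in that bin. Opened collagen peaks had a median of 0.14 average log2 CPM, a width of 264 bp and a GC content of 54.8%. Closed ones had 3.26 log2 CPM, 630 bp and 46.3%. With loess offsets, 24 of the 90 opened and 21 of the 113 closed peaks were called as well. TEAD words were in 38 of the 113 closed windows (33.6%, against 25.3% of all closed windows) and in 13 of the 90 opened ones (14.4%, against 17.6%), and the part of peak strength in this was not tested.

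Among collagen peaks whose average reached 1 log2 CPM, the largest cytokine rise lay in COL24A1, a fibrillar collagen known from developing bone and cornea, in an intron 17.4 kb from the start (chr1:86138623-86139383, the first window above). It lay at 1.07, 1.41 and 1.67 log2 CPM in unstimulated, 2.31, 2.87 and 3.73 in DMSO and 2.24, 2.92 and 3.00 in belinostat libraries. All DMSO and belinostat libraries were above all unstimulated ones, and DMSO and belinostat libraries overlapped. The log2 fold change was 1.78 ± 0.18 (adjusted p 3.28e-14) in the cytokine contrast, a 3.44-fold difference, and 2.06 with loess offsets (adjusted p 1.01e-18). In the belinostat contrast it was -0.26 (adjusted p 0.398).

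Its neighbour, also intronic and 18.9 kb from the start (chr1:86137401-86137829), lay at -0.10, 0.16 and 0.41 log2 CPM in unstimulated, 1.02, 1.64 and 1.81 in DMSO and 0.33, 1.30 and 1.48 in belinostat libraries. DMSO libraries were again all higher than unstimulated ones, and 1 belinostat library fell within the unstimulated range. The log2 fold changes were 1.66 ± 0.26 (adjusted p 1.3e-06) with cytokines and -0.38 (adjusted p 0.397) with belinostat. Along COL24A1, 6 of 34 peaks were opened (17.6%) and 3 closed (8.82%), against 9.51% and 9.73% of all peaks. With loess offsets 5 were opened (14.7%) and 2 closed (5.88%), against 1.99% and 1.92%. The opened peaks lay 5.83 kb to 103.4 kb from the start and the closed ones 215.8 kb to 293.8 kb. The closed ones included a peak 289.2 kb from the start (chr1:85867206-85867615), at 1.14, 1.62 and 1.89 log2 CPM in unstimulated and -0.47, 0.70 and 1.02 in DMSO libraries. Its groups did not overlap, with DMSO low, and the log2 fold change was -1.09 ± 0.24 (adjusted p 0.000675, and -1.12 with loess offsets).

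The other named rises lay in COL22A1 and COL23A1. The COL22A1 peak, in an intron 43.0 kb from the start (chr8:138869904-138871047), went from 0.13, 0.50 and 0.98 log2 CPM in unstimulated to 1.14, 1.89 and 2.33 in DMSO libraries and lay at 1.16, 1.63 and 2.19 in belinostat libraries. Unstimulated libraries were low and apart from both other groups, and the cytokine log2 fold change was 1.47 ± 0.24 (adjusted p 2.27e-06). COL22A1 had 15 of 71 peaks opened (21.1%) and 0 closed, against 9.51% and 9.73% of all peaks. With loess offsets 6 were opened (8.45%, against 1.99%). This gene had the lowest accessibility per kb, and weak peaks were seldom closed in general. Of all peaks in the weakest bin and the next, 0.207% and 0.367% were closed with TMM. The peak of COL23A1, a transmembrane collagen, lay in an intron 69.8 kb from the start (chr5:178519650-178520599), at -0.12, 0.23 and 0.50 log2 CPM in unstimulated and 0.92, 1.36 and 1.74 in DMSO libraries, which were all higher. Its log2 fold change was 1.34 ± 0.27 (adjusted p 0.000176). COL23A1 had 19 of 109 peaks opened (17.4%) and 2 closed (1.83%), against the same shares of all peaks. With loess offsets 5 were opened (4.59%, against 1.99%) and 0 closed (against 1.92%).

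The largest fall was in COL12A1, which binds the surface of type I fibrils, in an intron 70.2 kb from the start (chr6:75135567-75135817). It lay at 1.57, 1.68 and 1.86 log2 CPM in unstimulated, -0.06, 0.75 and 1.37 in DMSO and 0.28, 0.85 and 1.06 in belinostat libraries. Unstimulated libraries were all above the rest, with a cytokine log2 fold change of -1.12 ± 0.23 (adjusted p 0.000346). A COL4A2 peak in an intron (chr13:110365897-110366189, 58.6 kb) lay at 1.15, 1.42 and 1.65 log2 CPM in unstimulated and -1.21, 0.78 and 1.02 in DMSO libraries, without overlap. Its log2 fold change was -0.96 ± 0.26 (adjusted p 0.00511). The peak of COL25A1, a transmembrane collagen of the nervous system, lay in an intron 276.6 kb from the start (chr4:109024920-109026039, the third window above), at 3.82, 4.05 and 4.31 log2 CPM in unstimulated, 2.86, 3.14 and 3.47 in DMSO and 2.56, 2.86 and 3.07 in belinostat libraries. DMSO libraries were all lower than unstimulated ones and overlapped with belinostat ones. The log2 fold change was -0.93 ± 0.13 (adjusted p 2.5e-08), which loess offsets brought to -0.60 (adjusted p 1.64e-05).

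These 8 largest cytokine changes kept their direction and an adjusted p under 0.05 in each fit without 1 of the 18 libraries. They were chosen as large called changes in these same libraries, so this is not an independent check. Among the genes with many falls were COL14A1, a FACIT collagen (15 of 46 peaks closed, 0 opened, and 5 closed with loess offsets), COL4A2 (13 closed and 1 opened of 58, and 1 and 1 with loess offsets), COL5A1 (12 and 3 of 55, and 1 and 2) and COL12A1 (8 and 0 of 21, with 3 closed under loess offsets). With TMM the closed shares were 32.6%, 22.4%, 21.8% and 38.1%, against 9.73% of all peaks and 35.8% of those in the strongest bin. With loess offsets 1.92% of all peaks were closed. In COL1A1, the peak with the smallest cytokine p lay in an intron 0.489 kb from the start (chr17:50200018-50201142, which also overlaps ENSG00000249406), at 6.15, 6.27 and 6.37 log2 CPM in unstimulated and 5.62, 5.82 and 5.97 in DMSO libraries. The DMSO libraries were lower without overlap, by -0.47 ± 0.10 on the log2 scale (adjusted p 0.000728), but with loess offsets it was -0.04 (adjusted p 0.699). The corresponding peak of COL3A1 (chr2:188978829-188979085, an intron 4.46 kb from the start) had -0.65 ± 0.19 (adjusted p 0.011), lost with loess offsets (-0.45, adjusted p 0.149) and without unstimulated 6 (-0.47, adjusted p 0.0982).

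**Figure D3:**
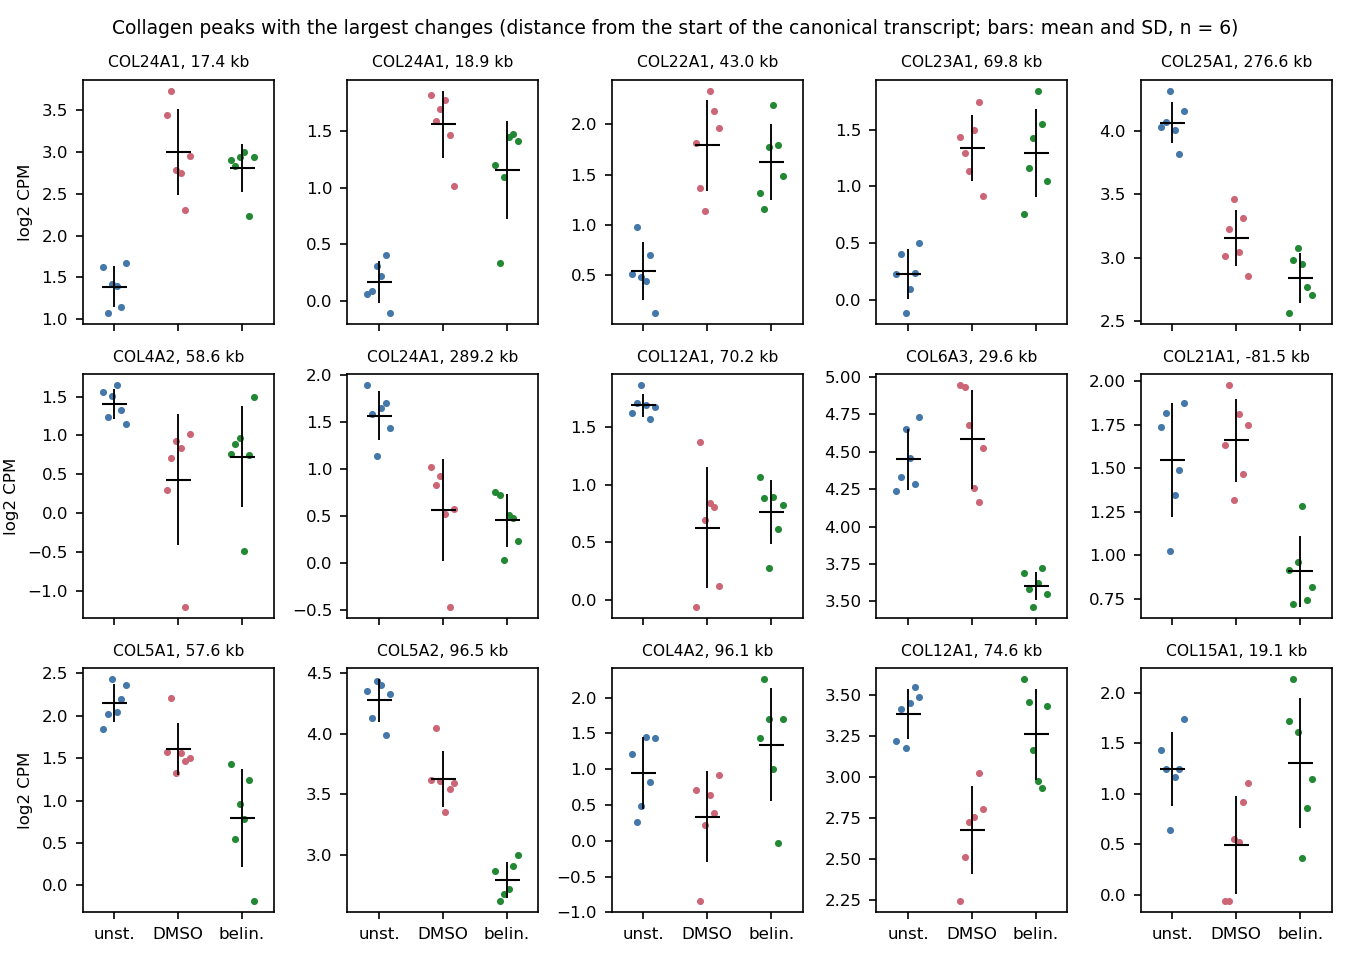
Log2 CPM of 15 named collagen peaks in unstimulated, DMSO and belinostat libraries, with 1 dot per library, lines at the mean and SD of 6, a scale of its own for each panel, and titles giving the gene and the distance from the start of the canonical transcript. The COL24A1, COL22A1 and COL23A1 peaks that rose after cytokines stay high on average after belinostat. At the weaker COL24A1 rise, belinostat 2 (0.33 log2 CPM) lies within the unstimulated range. The COL6A3, COL5A2 and COL21A1 peaks are low in belinostat libraries alone or lowest there.

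In the belinostat contrast 4 collagen peaks were opened and 23 closed, 0.357% and 2.05%, against 0.607% opened and 1.75% closed of all peaks. Without adjustment, 86 higher and 101 lower ones had a p under 0.05. Loess offsets gave 14 opened and 18 closed ones, against 0.95% and 1.5% of all peaks. The closed peaks were 6 fibrillar and 17 other ones in 15 genes, with 0 in the basement membrane genes, and 21 of the 23 lay in introns. Their log2 fold changes ran from -1.02 to -0.40. In 15 of the 23 the call also held with loess offsets, and in 11 the belinostat and DMSO libraries did not overlap, as in 42.7% of all peaks closed with belinostat. In the cytokine contrast, which shares the DMSO libraries, 10 of these 23 peaks were closed and 0 opened. In the residual contrast 22 were closed, but it shares the belinostat libraries in which these peaks were chosen as low. Neither count is an independent measurement. All 23 lay in the strongest of the 4 bins, where 35.8% of all peaks were closed with cytokines and 49.6% in the residual contrast. Without belinostat 5 the closed count was 12, and without belinostat 1 it was 35. AP-1 words were in 6 of the 23 windows (26.1%, against 38.2% of all peaks closed with belinostat) and RUNX words in 8 (34.8%, against 27.0%).

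The largest fall was in COL6A3, which encodes the longest chain of type VI collagen, in an intron 29.6 kb from the start (chr2:237383837-237384551, the COL6A3 window above). It lay at 4.24, 4.39 and 4.73 log2 CPM in unstimulated, 4.16, 4.60 and 4.94 in DMSO and 3.46, 3.60 and 3.72 in belinostat libraries. All 6 belinostat libraries lay below all 12 others. The log2 fold change was -1.02 ± 0.13 (adjusted p 3.48e-10) with belinostat, a 2.03-fold difference, and -0.85 with loess offsets (adjusted p 4.08e-11). The cytokine contrast gave 0.16 (adjusted p 0.326), and loess offsets raised this to 0.53 (adjusted p 2.5e-06). It was the 1 called peak of the 28 in COL6A3.

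COL5A2, a chain of type V collagen, which sets the diameter of type I fibrils, had a fall in an intron 96.5 kb from the start (chr2:189082324-189083284, the COL5A2 window above). It lay at 3.99, 4.34 and 4.44 log2 CPM in unstimulated, 3.35, 3.60 and 4.05 in DMSO and 2.62, 2.79 and 3.00 in belinostat libraries. The belinostat libraries were lowest without overlap, and DMSO libraries lay between with 1 inside the unstimulated range. The log2 fold changes were -0.66 ± 0.12 (adjusted p 4.2e-05) with cytokines, -0.85 ± 0.14 (adjusted p 6.06e-06) with belinostat and -1.51 (adjusted p 3.88e-19) in the residual contrast. With loess offsets the belinostat value was -0.70 (adjusted p 7.55e-06).

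COL5A1, its partner chain, had 3 closed peaks of 55 (5.45%, against 1.75% of all peaks). This was the largest count of any fibrillar gene, but COL5A1 also has the most peaks of these genes. COL1A1 had a larger share, with 1 of 9 closed (11.1%). The COL5A1 peak named by size lay 57.6 kb from the start (chr9:134699431-134699777), at 1.84, 2.12 and 2.43 log2 CPM in unstimulated, 1.32, 1.53 and 2.21 in DMSO and -0.19, 0.87 and 1.43 in belinostat libraries. Belinostat and DMSO libraries overlapped. Its log2 fold change was -0.87 ± 0.24 (adjusted p 0.0249) and did not pass without DMSO 2 or belinostat 2, 4 or 6 (adjusted p up to 0.155). The other 2, in introns 83.5 kb and 93.6 kb from the start (chr9:134725264-134726042 and chr9:134735427-134736012), were singled out after their values were seen. Neither overlapped between belinostat and DMSO libraries, with log2 fold changes of -0.67 (adjusted p 5.66e-05, and -0.50 with loess offsets) and -0.48 (adjusted p 0.00343, and -0.29 with loess offsets). Another chosen in this way was an intronic peak of the fibrillar gene COL27A1 (chr9:114277324-114277805, 121.8 kb), where DMSO libraries lay at 4.35, 4.54 and 4.79 log2 CPM and belinostat libraries, all lower, at 3.64, 3.82 and 4.26. Its log2 fold change was -0.68 ± 0.12 (adjusted p 2.75e-05).

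COL21A1, a FACIT collagen of vessel walls, had a closed peak 81.5 kb before the start of its canonical transcript, within an intron of longer transcripts (chr6:56329120-56329947). It lay at 1.03, 1.61 and 1.87 log2 CPM in unstimulated, 1.32, 1.69 and 1.98 in DMSO and 0.72, 0.87 and 1.28 in belinostat libraries, which lay below all DMSO libraries. The log2 fold change was -0.85 ± 0.23 (adjusted p 0.0213), lost without DMSO 2, belinostat 2 or belinostat 5 (adjusted p up to 0.0816). In COL1A1 an intronic peak (chr17:50188179-50188435) passed with -0.71 ± 0.21 (adjusted p 0.0441), its groups overlapped, and it passed neither with loess offsets (adjusted p 0.0702) nor without unstimulated 2, DMSO 1, 3 or 6 or belinostat 2, 3, 4 or 6 (adjusted p up to 0.155). The peaks with the smallest belinostat p in COL1A2 (chr7:94410661-94411138, -0.70, adjusted p 0.148) and COL3A1 (chr2:188997316-188997744, -0.74, adjusted p 0.182) did not pass.

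Basement membrane genes had 1 opened and 0 closed of 148 peaks with belinostat, and 7 opened and 0 closed with loess offsets, all in COL4A1 or COL4A2. One of these 7, an intronic COL4A1 peak 5.00 kb from the start singled out after its values were seen (chr13:110301373-110302156), lay at 3.57, 3.87 and 4.24 log2 CPM in unstimulated, 2.54, 3.69 and 3.90 in DMSO and 3.55, 3.94 and 4.08 in belinostat libraries. The groups overlapped, and the belinostat log2 fold change was 0.27 (adjusted p 0.308) with TMM and 0.42 (adjusted p 0.01) with loess offsets.

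The 4 opened peaks were 1 each in COL4A2, COL15A1, COL12A1 and COL14A1, and all 4 also passed with loess offsets. The COL12A1 peak lay over a coding exon 74.6 kb from the start (chr6:75130577-75131469, the last window above). It lay at 3.18, 3.44 and 3.55 log2 CPM in unstimulated, 2.24, 2.74 and 3.03 in DMSO and 2.93, 3.30 and 3.60 in belinostat libraries. DMSO libraries were below all unstimulated ones and overlapped with belinostat ones, which spanned the unstimulated range. The log2 fold changes were -0.72 ± 0.14 (adjusted p 0.00015, and -0.41 with loess offsets) with cytokines and 0.59 ± 0.15 (adjusted p 0.00874, and 0.71 with loess offsets) with belinostat. Both contrasts use the same DMSO libraries, so opposite signs at a peak chosen for its call are not independent measurements.

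In COL4A2 an intronic peak 96.1 kb from the start (chr13:110403356-110403679) lay at 0.26, 1.02 and 1.45 log2 CPM in unstimulated, -0.85, 0.51 and 0.92 in DMSO and -0.03, 1.56 and 2.26 in belinostat libraries. The groups overlapped, and the belinostat log2 fold change was 1.16 ± 0.28 (adjusted p 0.00619), lost without DMSO 2 or belinostat 2 (adjusted p up to 0.0856). In COL15A1, a multiplexin of vascular basement membrane zones, an intronic peak (chr9:98963013-98963167) lay at -0.06, 0.54 and 1.11 log2 CPM in DMSO and 0.36, 1.38 and 2.13 in belinostat libraries, which overlapped. Its log2 fold change was 0.92 ± 0.27 (adjusted p 0.0422), lost without DMSO 1, 2, 3 or 4 or belinostat 1, 2 or 3 (adjusted p up to 0.222). The COL14A1 peak, named because few peaks opened and chosen after its values were seen, was weak. It lay at -1.27, -0.78 and -0.12 log2 CPM in unstimulated, -1.81, -1.23 and -0.66 in DMSO and -0.48, 0.26 and 0.72 in belinostat libraries, which were all higher than DMSO ones, with a log2 fold change of 2.41 ± 0.53 (adjusted p 0.00182).

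COL7A1 was examined further because the study uses it as a marker of inflammatory fibroblasts, the cell state that the cytokine pulses were meant to induce. In RNA libraries of this line, the study reported more COL7A1 transcript after the pulses and a rest. The values here are accessibility and do not measure transcript. Its start peak (chr3:48595525-48596098) lay at 3.36, 3.66 and 3.88 log2 CPM in unstimulated, 3.42, 3.67 and 3.84 in DMSO and 3.20, 3.56 and 3.78 in belinostat libraries. The 3 groups overlapped, with log2 fold changes of -0.01 (adjusted p 0.979) with cytokines and -0.10 (adjusted p 0.735) with belinostat. With loess offsets the cytokine value was 0.33 (adjusted p 0.0378), so the start peak was then opened. The summed counts of the gene gave 0.07 (adjusted p 0.19) after cytokines with TMM and 0.18 (adjusted p 0.00444) with the loess offsets of the peaks. That sum includes the strong upstream peak over UQCRC1 described next, so it is not a reading of COL7A1 alone. Without that peak, COL7A1 lay at 12.6 ± 0.85 CPM per kb of peak (SD, n = 6) in unstimulated libraries. In DMSO libraries it lay at 14.0 ± 1.28 (SD, n = 6), and this difference was not tested. The peak with the smallest p in both contrasts lay 2.97 kb upstream and overlaps UQCRC1, a subunit gene of mitochondrial complex III (chr3:48598301-48599039). It lay at 5.66, 5.97 and 6.22 log2 CPM in unstimulated, 5.47, 5.64 and 5.73 in DMSO and 5.05, 5.18 and 5.52 in belinostat libraries, each group overlapping with the next. Its log2 fold changes were -0.32 ± 0.10 (adjusted p 0.0185) with cytokines, which turned to 0.10 with loess offsets (adjusted p 0.267), and -0.40 ± 0.11 (adjusted p 0.018) with belinostat, -0.19 with loess offsets (adjusted p 0.0482). The first was lost without unstimulated 1, unstimulated 6 or DMSO 4 (adjusted p up to 0.0946), and the second without DMSO 3, DMSO 6, belinostat 2 or belinostat 5 (up to 0.0668).

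**Figure D4:**
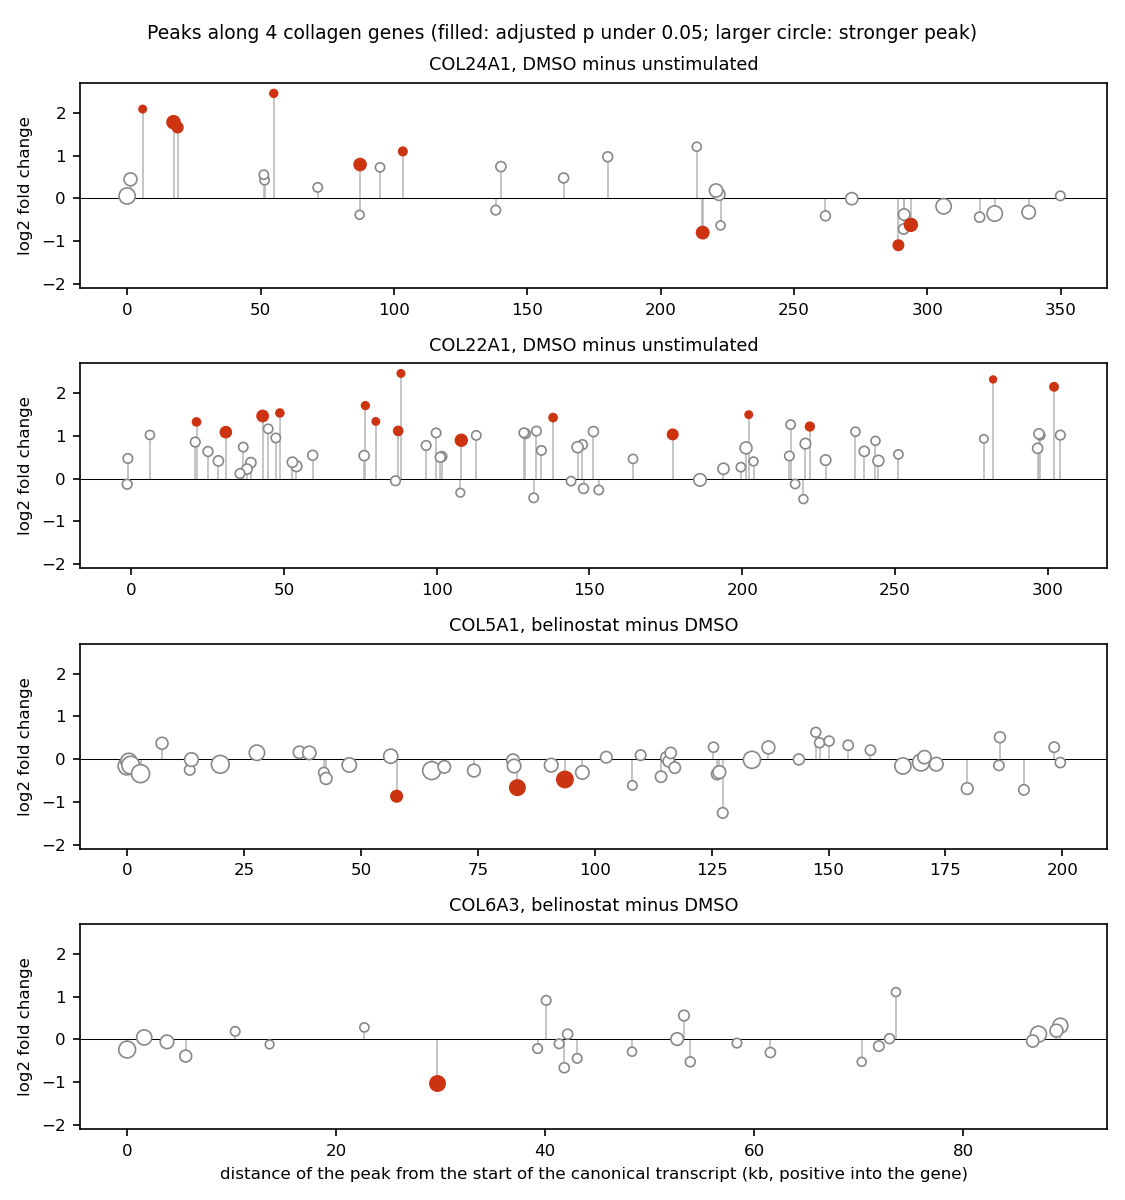
Log2 fold change (TMM) of each peak along COL24A1 and COL22A1 in the cytokine contrast and along COL5A1 and COL6A3 in the belinostat contrast, against the distance in kb from the start of the canonical transcript, with filled circles for an adjusted p under 0.05 and larger circles for stronger peaks. COL24A1 holds opened peaks in its first part and closed ones further on, COL22A1 holds opened peaks and no closed ones, and COL5A1 and COL6A3 hold 3 closed peaks and 1. Of all peaks in the weakest of the bins by strength, 0.207% were closed after cytokines.

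Counts were also summed over all peaks of a gene and tested over 18893 genes, with TMM factors from these sums. In the cytokine contrast 15 collagen loci were higher and 3 lower, against 19.5% higher and 12.2% lower of all loci. Fibrillar genes had 2 higher and 1 lower, basement membrane genes 2 and 0, and the others 11 and 2. The median log2 fold change was 0.10 over collagen loci and -0.02 over all loci. The scaling moved all loci together. The median over all loci was -0.21 with TMM over 10 kb bins, -0.26 with the TMM factors of the peaks and -0.74 with TMM over the weaker 50% of peaks, where 13, 11 and 1 of the 15 higher loci stayed above 0. Relative to that median all 15 lay above it and the 3 lower ones below it under these scalings. With the loess offsets of the peaks 8 were higher and 7 lower, against 8.25% and 4.95% of all loci. That fit shared 7 of the higher loci, namely COL22A1, COL17A1, COL20A1, COL23A1, COL9A2, COL24A1 and COL6A3, and all 3 lower ones, and the higher COL4A3 and COL4A4 turned to -0.08 and -0.10.

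COL22A1 had the largest locus difference. It lay at 4.23, 5.38 and 5.58 log2 CPM in unstimulated, 5.68, 6.25 and 6.47 in DMSO and 5.77, 6.51 and 6.88 in belinostat libraries, with unstimulated libraries low and apart. The log2 fold change was 1.00 ± 0.17 (adjusted p 0.000321), and 0.48 with the loess offsets of the peaks (adjusted p 8.86e-05). COL24A1 lay at 6.25, 6.28 and 6.41 log2 CPM in unstimulated and 6.53, 6.58 and 6.72 in DMSO libraries, all higher, with 0.29 ± 0.05 (adjusted p 0.000118), which turned to -0.43 with TMM over the weaker 50% of peaks, above the median of all loci there. COL17A1, a transmembrane collagen of epithelial hemidesmosomes, had 0.69 ± 0.14 (adjusted p 0.000943), and COL20A1, a FACIT collagen, 0.65 ± 0.15 (adjusted p 0.00214), and with those weaker peaks they were at -0.01 and -0.05. The lower loci were COL12A1 (-0.22 ± 0.06, adjusted p 0.00568), COL14A1 (-0.15 ± 0.04, adjusted p 0.00546) and COL5A2 (-0.15 ± 0.06, adjusted p 0.0443), below 0 under every scaling tried. Libraries of the compared groups did not overlap in 7 of the 15 higher and 0 of the 3 lower loci, against 35.6% of all higher and 30.7% of all lower loci. COL13A1 lost its call without unstimulated 3, unstimulated 6, DMSO 1 or DMSO 2 (adjusted p up to 0.0753), and COL26A1, COL9A3 and COL5A2 each lost theirs in 8, 9 and 9 of the 18 fits without 1 library (up to 0.126, 0.126 and 0.128), unstimulated 1, 4 and 6, DMSO 1 and DMSO 4 being among the libraries for all 3. The type I and III genes COL1A1 (-0.09, adjusted p 0.139), COL1A2 (-0.09, adjusted p 0.138) and COL3A1 (-0.14, adjusted p 0.0781) did not pass, though COL3A1 was lower with the loess offsets of the peaks (-0.21, adjusted p 0.0124).

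**Figure D5:**
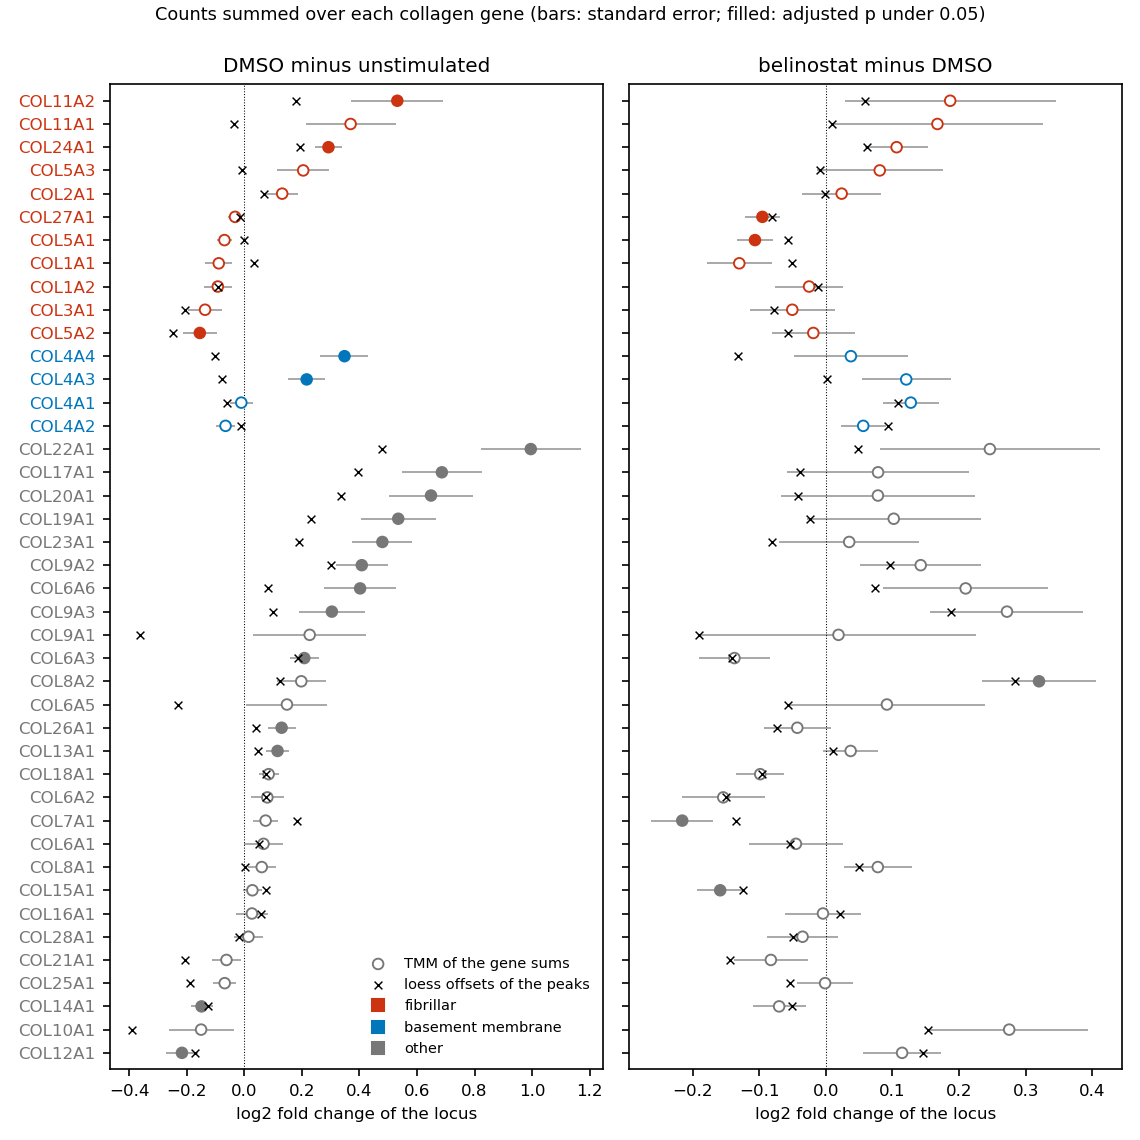
Log2 fold change of the counts summed over each of the 42 collagen genes, with the standard error as a bar, filled circles for an adjusted p under 0.05 with TMM factors of the gene sums, and crosses for the value with the loess offsets of the peaks. COL22A1 has the largest value in the left panel (DMSO minus unstimulated), where 14 of the 15 filled circles above 0 fall below 0 with TMM over the weaker 50% of peaks, and 5 circles are filled in the right panel (belinostat minus DMSO).

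In the belinostat contrast 1 collagen locus was higher and 4 were lower, against 1.76% and 3.72% of all loci. COL8A2, a short-chain collagen of the corneal Descemet membrane, lay at 4.76, 5.15 and 5.24 log2 CPM in DMSO and 5.19, 5.41 and 5.74 in belinostat libraries. Its groups overlapped, and the log2 fold change was 0.32 ± 0.09 (adjusted p 0.0263), lost without DMSO 2, DMSO 3 or belinostat 2, 3 or 5 (adjusted p up to 0.0784). COL7A1 lay at 6.43, 6.55 and 6.65 log2 CPM in DMSO and 6.20, 6.33 and 6.42 in belinostat libraries, all lower, with -0.22 ± 0.05 (adjusted p 0.00674). Counted over the gene body alone, without the upstream peaks, among them the one over UQCRC1, it was -0.10 (adjusted p 0.602). COL15A1 lay at 7.52, 7.63 and 7.73 log2 CPM in DMSO and 7.40, 7.48 and 7.52 in belinostat libraries, groups that met at 7.52, with -0.16 ± 0.03 (adjusted p 0.00715, and -0.12 with the loess offsets of the peaks). The fibrillar genes COL5A1 (-0.11 ± 0.03, adjusted p 0.0231) and COL27A1 (-0.10 ± 0.03, adjusted p 0.0329) were lower by small amounts, and the first was lost without DMSO 2 or belinostat 5 (adjusted p up to 0.0696) and the second without DMSO 2 or 6 or belinostat 3, 4, 5 or 6 (up to 0.0844). All 4 lower loci stayed below the median of all loci under every scaling tried. With the loess offsets of the peaks 1 locus was higher (COL8A2) and 1 lower (COL15A1), against 2.08% and 2.04% of all loci.

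The residual contrast gave 172 opened and 177 closed collagen peaks, 15.4% and 15.8%, against 16.8% and 13.7% of all peaks, and 52 and 70 with loess offsets, against 3.81% and 4.93% of all peaks. Fibrillar genes had 27 opened and 56 closed, basement membrane genes 18 and 24, and the others 127 and 97. Of loci, 19 were higher and 9 lower, against 27.0% and 24.2% of all loci, and 8 were higher and 8 lower with the loess offsets of the peaks, against 13.9% and 6.37%. Among the lower loci were COL1A1 (-0.22, adjusted p 0.000599), COL5A1 (-0.17, adjusted p 2.2e-05) and COL14A1 (-0.22, adjusted p 8.36e-05), and COL22A1 (1.24, adjusted p 8.05e-06) had the largest rise. With the loess offsets of the peaks COL1A1 (-0.02, adjusted p 0.775) and COL5A1 (-0.06, adjusted p 0.153) did not pass, while COL14A1 (-0.18, adjusted p 0.000186) and COL22A1 (0.53, adjusted p 1.45e-05) did. The median over all loci in this contrast was -0.01, and -0.95 with TMM over the weaker 50% of peaks.

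The genes that process collagen were counted by locus from a list of 44, with the TMM factors of the gene sums, so the shifts of all loci with other scalings given above apply to these directions too. In the cytokine contrast 6 were higher and 10 lower (against 19.5% and 12.2% of all loci), and 4 and 3 with the loess offsets of the peaks (against 8.25% and 4.95%). The higher ones included ADAMTS3, which removes the propeptide of procollagen (0.52 ± 0.07, adjusted p 1.66e-05, and 0.48 with those offsets), and P4HA3, a prolyl hydroxylase subunit (0.27 ± 0.06, adjusted p 0.00189, and 0.26). The lower ones included CRTAP, a cofactor of prolyl 3-hydroxylation (-0.22 ± 0.05, adjusted p 0.00111, and -0.14). Of the 8 procollagen processing genes 3 were higher (2 with the offsets) and 0 lower, and of the 4 secretion genes 0 were higher and 2 lower (0 with the offsets). In the belinostat contrast 0 were higher and 5 lower, against 1.76% and 3.72% of all loci. These were the collagenases MMP14 (-0.38 ± 0.05, adjusted p 3.3e-05, and -0.29 with the offsets) and MMP13 (-0.38 ± 0.10, adjusted p 0.0254, and -0.31), the crosslinking enzyme gene LOXL1 (-0.17), the folding enzyme gene PPIB (-0.21) and the prolyl hydroxylase gene P4HA2 (-0.09), of which LOXL1, PPIB and P4HA2 did not pass with the offsets. With the offsets P4HA3 (-0.21, adjusted p 0.0373) was also lower, and the crosslinking enzyme genes LOX (0.30, adjusted p 0.0088) and LOXL3 (0.16, adjusted p 0.0469) were higher.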

How the data were processed

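The 18 libraries were those of the sample titles, 6 per group, and each count column matched 1 title. Per the study's methods, the authors trimmed paired-end reads, used the ENCODE pipeline for ATAC-seq to align them (hg38), called peaks with MACS2, built a consensus set and counted fragments with csaw, leaving out blacklisted regions. The deposited values are raw counts per peak and library, not normalized. The authors took their TMM factors from counts in 10 kb bins, which were not used here; the alternative with 10 kb bins sums peak counts within each bin, so it carries no background reads from outside peaks. ChIPseeker 1.34.1 is named in the submitters' processing notes.

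Counts were tested with edgeR 4.0.16 (glmQLFit and glmQLFTest, legacy method) in R 4.3.3, with 1 mean per group over all 18 libraries, TMM factors and Benjamini-Hochberg adjustment over all 334857 peaks or 18893 gene sums. The study's filter, an average log2 CPM over -3, removed 0 peaks (lowest -1.81). Starts were taken to count from 0 in the deposited table, since its narrowest peaks are then 150 bp wide (24318 peaks), and 1 was added. Gene features came from GENCODE release 44 (hg38), and distances are from the start of the canonical transcript. Loess offsets were computed with limma 3.58.1, DESeq2 1.42.0 was an alternative, and words were searched in 300 bp. The test was also run on simulated counts. These held no trend with peak strength between groups, so that run cannot tell which scaling is right here.

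Named were all loci, all start peaks, the 4 largest rises and 4 largest falls per contrast (adjusted p under 0.05, average log2 CPM of at least 1; 3 rises with belinostat met this), and the peak with the smallest p in COL7A1, COL1A1, COL1A2 and COL3A1. Members, lists and tests were chosen with earlier results of these data known. The TMM factors and loess offsets of the peaks, applied to gene sums, were added after seeing the data. Between library pairs of a group, chi-square per degree of freedom ran from 1.02 to 1.99, where sampling noise alone gives about 1. The lowest values lay close to that, and the excess was not tested. No pair was counted as 1 library deposited again. Counting error is smallest at strong peaks, and depth was lowest in belinostat libraries. Same-numbered libraries did not deviate together (correlations from -0.13 to 0.11 over 18 pairs), so the numbers were not used as pairs.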

Additional observations from a re-analysis of the deposited data

Results flagged for a closer look

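A library was singled out where its gap to the nearest of the other 5, divided by the range of the group, was above Dixon's critical value for 6 values. This held in 20 of 294 groups tried (named peaks and loci, 3 groups each), where chance alone singles out about 1 in 20 groups. All values are log2 CPM.

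Among loci, COL16A1 was high in belinostat 2 (6.60, group median 6.44). The rest were low: COL8A2 in DMSO 3 (4.76, median 5.15), COL9A2 in DMSO 3 (4.07, median 4.39), COL11A1 in unstimulated 2 (2.30, group range up to 2.81), COL7A1 in unstimulated 2 (6.32, median 6.49), COL6A6 in belinostat 1 (3.48, median 4.28) and COL4A1 in DMSO 1 (7.35, median 7.54). The rise of COL8A2 with belinostat was lost without DMSO 3, its lowest DMSO library, and in 4 further fits without 1 library.

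Among peaks with large cytokine changes, COL24A1 was low in belinostat 5 at chr1:86138623-86139383 (2.24, median 2.92), in belinostat 2 at chr1:86137401-86137829 (0.33, median 1.30) and in DMSO 5 at chr1:85867206-85867615 (-0.47, median 0.70). The COL4A2 peak chr13:110365897-110366189 was also low in DMSO 5 (-1.21, median 0.78). The COL5A1 peak chr9:134699431-134699777 was high in DMSO 2 (2.21, median 1.53), one of the libraries whose omission changes calls in the belinostat contrast. The COL3A1 peaks were low in belinostat 4 at chr2:188978829-188979085 (-0.22, median 1.74) and in DMSO 4 at chr2:188997316-188997744 (0.53, median 1.12).

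Among start peaks, COL1A1 was low in DMSO 1 (3.57, median 4.29), and without that library its fall after cytokines did not pass. COL9A2 was low in DMSO 5 (0.021, median 0.82), COL8A1 in unstimulated 5 (2.92, median 3.45) and COL6A6 in belinostat 1 (-1.04, median 0.33). COL6A2 (4.56, median 4.19) and COL27A1 (3.69, median 3.08) were high in belinostat 1.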

How the results depend on the processing

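For cytokines, opened peaks (90) became 173 with library totals, 26 with TMM over the weaker 50% of peaks, 32 with loess offsets and 52 with DESeq2, and closed peaks (113) became 49, 351, 25 and 69. Loci that were higher (15) became 7 with 10 kb bins, 1 with the weaker 50%, 6 with the TMM factors of the peaks and 8 with the loess offsets of the peaks, and lower loci (3) became 16, 35, 21 and 7, and 6 with library totals. For belinostat, opened peaks (4) became 11, 2 and 14 with library totals, the weaker 50% and loess offsets, while closed peaks (23) stayed within 1.5 times. The higher locus (1) became 0 with 10 kb bins, the weaker 50% and the TMM factors of the peaks, 3 with loess offsets of the gene sums and 2 with DESeq2, and lower loci (4) became 1, 0, 1 and 2 in the first 4 of these, and 1 with the loess offsets of the peaks. For the residual contrast, opened peaks (172) became 307, 23 and 52 with library totals, the weaker 50% and loess offsets, and 94 for peaks with an average log2 CPM over 0, and closed peaks (177) became 73, 428 and 70. Higher loci (19) became 10, 1, 8 and 8 with 10 kb bins, the weaker 50%, the TMM factors and the loess offsets of the peaks, and lower loci (9) became 20, 38, 24 and, with loess offsets of the gene sums, 4. Fits without 1 library gave 60 to 108 opened and 75 to 132 closed peaks for cytokines (both lowest without unstimulated 6, highest without DMSO 3), 12 to 19 higher and 2 to 5 lower loci, 2 to 10 opened (without DMSO 2 and belinostat 4) and 12 to 35 closed peaks for belinostat, 0 to 3 higher and 2 to 5 lower loci, and 116 to 190 opened (116 without belinostat 4), 139 to 198 closed, 17 to 19 higher and 6 to 11 lower in the residual contrast. With the replicate number as a block there were 92 opened and 118 closed peaks and 16 and 4 loci for cytokines, 4 and 28 and 1 and 3 for belinostat, and 165 and 182 and 19 and 9 in the residual contrast; the numbers do not pair libraries. With the weaker 50% of peaks, cytokine values became -0.17 at COL11A2 and COL19A1, -0.60 at COL13A1, -0.011 at COL17A1, -0.051 at COL20A1, -0.23 at COL23A1, -0.43 at COL24A1, -0.59 at COL26A1, -0.50 at COL4A3, -0.35 at COL4A4, -0.52 at COL6A3, -0.33 at COL6A6, -0.30 at COL9A2 and -0.42 at COL9A3, and residual ones -0.42 at COL11A1, -0.80 at COL2A1 and COL4A1, -0.66 at COL5A3 and -0.79 at COL8A1. With 10 kb bins they were -0.075 at COL13A1 and -0.062 at COL26A1, and in the residual contrast -0.11 at COL2A1, -0.14 at COL4A1 and -0.12 at COL8A1. With the TMM factors of the peaks they were -0.13 at COL13A1, -0.11 at COL26A1, -0.028 at COL4A3 and -0.039 at COL6A3, and -0.18, -0.21, -0.056 and -0.19 at COL2A1, COL4A1, COL5A3 and COL8A1 in the residual contrast. With the loess offsets of the peaks they were -0.076 at COL4A3 and -0.10 at COL4A4, and in the residual contrast -0.026 at COL11A1 and -0.015 at COL5A3. Among named peaks the cytokine values at COL7A1 (chr3:48598301-48599039) and the COL5A1 start turned to 0.097 and 0.027 with loess offsets. Of 868 alternative values for the 31 named locus results, 716 kept their direction and side of the threshold, 116 no longer passed and 36 turned. Of 850 for the 34 named peak results, these were 758, 90 and 2. Both totals include the fits without each of the 18 libraries, which keep the scaling. Of the 31 locus results, 14 were kept with 10 kb bins, 7 with the weaker 50%, 13 with the TMM factors of the peaks and 14 with their loess offsets. In the same order 5, 19, 8 and 4 turned. Of the 34 peak results, 21 were kept with library totals and 18 with loess offsets. Weak peaks had few counts per library, so depth limits what could be seen there, most of all in belinostat libraries.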
